A study of Mus musculus with 4 samples.

Results

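Carbonic anhydrases are zinc enzymes that interconvert carbon dioxide and water with bicarbonate and a proton. In the intestinal epithelium they supply the ions that sodium-proton and chloride-bicarbonate exchangers carry across the apical membrane. The 9 genes described here (Car1, Car2, Car3, Car4, Car7, Car8, Car9, Car12 and Car13) were chosen by symbol, with earlier results of these data known. They come from the 20749 genes that could be named on the exon reference of the mm9 assembly. They are part of the 16 genes of the family with the symbol Car in that reference, and the other 7 are given as a group for comparison. Car1, Car2, Car3, Car7 and Car13 encode cytosolic enzymes, Car4 a membrane-anchored enzyme of the apical surface, Car9 and Car12 transmembrane enzymes with an extracellular catalytic domain, and Car8 a related protein without catalytic activity.

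RNA of small intestine and colon from C57BL/6 mice aged 9 to 10 weeks had been sequenced on the SOLiD platform, which reads colors that each encode a pair of neighbouring bases. In the cDNA fragmented protocol, polyadenylated RNA was copied into full-length cDNA before fragmentation, and strand was not kept. In the other protocol, as the study describes it, RNA was fragmented before adaptors were ligated with strand kept. The deposited strand-specific libraries are named rRNA-depleted here after their labels, and may be other libraries than those the study describes. All mice were without a stated treatment, the tissues (jejunum and distal colon by the study's methods) were whole pieces of gut wall that hold epithelium, muscle, nerves, blood and fat, and the study speaks of tissues from the same mice, but the labels do not say which libraries share an animal. With 1 library per tissue and protocol, intervals given below cover counting error only and not the spread between mice, and fewer cells of a type cannot be told apart from less RNA per cell.

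The cDNA fragmented libraries held 22484041 uniquely placed reads for small intestine and 24798934 for colon, and the rRNA-depleted ones 2035386 and 3478387. On the named genes 48.2 to 48.3% of reads lay on the annotated strand in the cDNA fragmented libraries and 98.5% in both rRNA-depleted ones. All 9 jejunal enterocyte markers, among them Fabp2 and Lct, were at least 3-fold higher in small intestine in both protocols. Of the 5 colonic surface markers found, 4 (Aqp8, Atp12a, Scnn1b and Slc26a3) were past the 3-fold rule given below, higher in colon in both. The other, Scnn1g, was too low to pass that rule but was also higher in colon. It had 1 and 183 reads in small intestine and colon by cDNA fragmentation, and 0 and 25 in the rRNA-depleted pair. The tissue labels thus matched their markers. Other differences between the libraries were not those of tissue alone. Xist, looked at after its values had been seen, had 1751 reads in the cDNA fragmented small intestine library and 31, 9 and 5 in the others, whereas 4 Y-linked genes together had 19 reads there and 3433, 360 and 785 in the others. The summed RPKM (reads per 1000 exonic bases and 1000000 uniquely placed reads) of 7 pancreatic acinar genes was 18.6 for small intestine and 1036 for colon by cDNA fragmentation, but 2886 and 298 in the rRNA-depleted pair. None of the 7 was called by limma over both protocols. An unadjusted limma p below 0.05 was reached by 1 of the 7, and by 3546 of all 13827 genes tested. High Xist with few Y-linked reads marks RNA of mostly female origin, and the reverse mostly male. By these genes the cDNA fragmented small intestine library was mostly female and the other libraries mostly male. The cDNA fragmented pair thus did not share the same source animals, and its ratios below also compare the sexes. Tissue and animal therefore cannot be told apart within a protocol, and in that pair neither can sex.

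Car1, Car2, Car3 and Car13 lie within 259 kb on chromosome 3, where Car1 is read from the minus strand and the other 3 from the plus strand. The 250 bases before the first exon block are shown for the 4 genes that were past 3-fold higher in colon in both protocols (Car1, Car2, Car4 and Car12) and for Car13, a neighbour of Car1 and Car2 with the opposite direction. For Car1, which in mouse is known to be transcribed from separate promoters in erythroid cells and in colon, 2 windows are shown, since its deposited exon blocks start with a 64-base block 29.8 kb upstream of the next. Sequences were read 5′ to 3′ from the mm9 genome. Capitals mark, on either strand, exact matches to TATAAA (a form of the TATA box), TTTAT (the core bound by Cdx factors) and AGATAA (bound by GATA factors). They also mark CACCC (bound by Krüppel-like factors) and ACGTG (the core of the hypoxia response element). TATAAA holds the reverse complement of TTTAT.
Car1 before the proximal first block, chr3:14778461-14778710, minus strand: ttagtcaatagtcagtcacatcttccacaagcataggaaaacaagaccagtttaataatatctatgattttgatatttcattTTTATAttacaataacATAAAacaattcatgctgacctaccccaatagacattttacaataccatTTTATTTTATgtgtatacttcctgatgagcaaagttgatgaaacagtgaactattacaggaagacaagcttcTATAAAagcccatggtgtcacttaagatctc
Car1 before the upstream block, chr3:14808366-14808615, minus strand: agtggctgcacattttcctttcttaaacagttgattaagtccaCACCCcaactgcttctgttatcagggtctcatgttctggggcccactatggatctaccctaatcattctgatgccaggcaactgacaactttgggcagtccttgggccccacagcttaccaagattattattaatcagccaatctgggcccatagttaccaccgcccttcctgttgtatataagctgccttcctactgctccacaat
Car2, chr3:14886176-14886425, plus strand: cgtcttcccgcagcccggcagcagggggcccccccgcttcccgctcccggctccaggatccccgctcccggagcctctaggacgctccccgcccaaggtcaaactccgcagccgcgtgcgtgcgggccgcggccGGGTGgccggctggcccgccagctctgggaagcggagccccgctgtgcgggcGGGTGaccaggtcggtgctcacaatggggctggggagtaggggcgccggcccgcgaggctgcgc
Car4, chr11:84771006-84771255, plus strand: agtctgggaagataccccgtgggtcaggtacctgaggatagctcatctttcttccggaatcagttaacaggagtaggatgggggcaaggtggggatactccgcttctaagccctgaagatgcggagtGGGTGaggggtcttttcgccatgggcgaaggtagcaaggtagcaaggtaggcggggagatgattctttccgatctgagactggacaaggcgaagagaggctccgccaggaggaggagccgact
Car12, chr9:66561243-66561492, plus strand: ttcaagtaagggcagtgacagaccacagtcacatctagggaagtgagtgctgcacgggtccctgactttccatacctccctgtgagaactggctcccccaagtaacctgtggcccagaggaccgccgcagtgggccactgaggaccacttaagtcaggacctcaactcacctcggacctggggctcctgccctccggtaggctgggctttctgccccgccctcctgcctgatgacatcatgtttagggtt
Car13, chr3:14641477-14641726, plus strand: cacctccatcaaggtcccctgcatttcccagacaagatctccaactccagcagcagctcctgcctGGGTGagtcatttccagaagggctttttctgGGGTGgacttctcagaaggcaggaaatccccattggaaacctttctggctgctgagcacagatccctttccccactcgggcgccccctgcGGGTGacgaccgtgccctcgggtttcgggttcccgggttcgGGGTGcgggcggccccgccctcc

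The window before the proximal Car1 block held 2 matches to TATAAA, which began 168 and 31 bases before the block, and 5 matches to TTTAT. Among 20746 windows of the same length, 11.7% held TATAAA and 33.1% held TTTAT. Neither exact string was found before the upstream Car1 block, where only CACCC was matched once, as in 53.1% of all windows. Other forms of the TATA box, such as the tatataa near the end of that window, were not sought. Before Car3, in the same cluster, TATAAA began 57 bases before the block, and no other member held it. AGATAA, found in 8.53% of windows, was matched before Car7 only, and ACGTG, found in 18.0%, before Car9 only, 18 bases from its block. Base composition differed widely, with 31.2% of bases G or C before the proximal Car1 block and 77.6% before Car2.

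In colon, 8 of 9 members had more RPKM than in small intestine by cDNA fragmentation, and 6 of 9 did so in the rRNA-depleted pair (5 with median-of-ratios scaling and 7 with the annotated strand alone). Over all genes present the median tissue ratio also favoured colon, as given below, and the share of such genes was not counted. These counts of direction are thus not read as a trait of the family. A gene was counted as past 3-fold when its RPKM in one tissue was at least 3 times its RPKM in the other plus 1. By this rule, 5 members were higher in colon in the cDNA fragmented libraries (Car1, Car2, Car3, Car4 and Car12), against 3.19% of all 16434 genes present, and none was higher in small intestine, against 2.73%. In the rRNA-depleted libraries 5 members were higher in colon (Car1, Car2, Car4, Car8 and Car12), against 6.59% of 15039 genes, and none in small intestine, against 3.72%. Car1, Car2, Car4 and Car12 passed in both, against 2.26% of 14809 genes present in both protocols. After 1 RPKM had been added, the log2 of the tissue ratio, colon over small intestine, had a median of 1.66 over the members and 0.16 over all genes present in the cDNA fragmented libraries, and 2.12 and 0.31 in the rRNA-depleted ones. Since the members were chosen with earlier results of these data known, these comparisons describe the 9 genes and not the whole family.

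All 4 libraries were then fitted together with protocol as a block (limma voom, Benjamini-Hochberg adjustment over 13827 genes). The spread in this fit starts from the disagreement of the 2 pairs of libraries over the tissue difference. That disagreement holds differences of protocol, animal and dissection alike. With 1 residual degree of freedom per gene and a prior of 22.1, limma took most of each gene's spread from all genes together. A member's adjusted p therefore says little about how far its own pairs agreed in size. All 9 members passed its filter on low counts. Higher in colon were Car1, Car2, Car4, Car8 and Car12, where 6.79% of all genes tested were called in that direction. Car13 was lower in colon, where 6.60% were called in that direction, and Car3, Car7 and Car9 were not called.

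**Figure D1:**
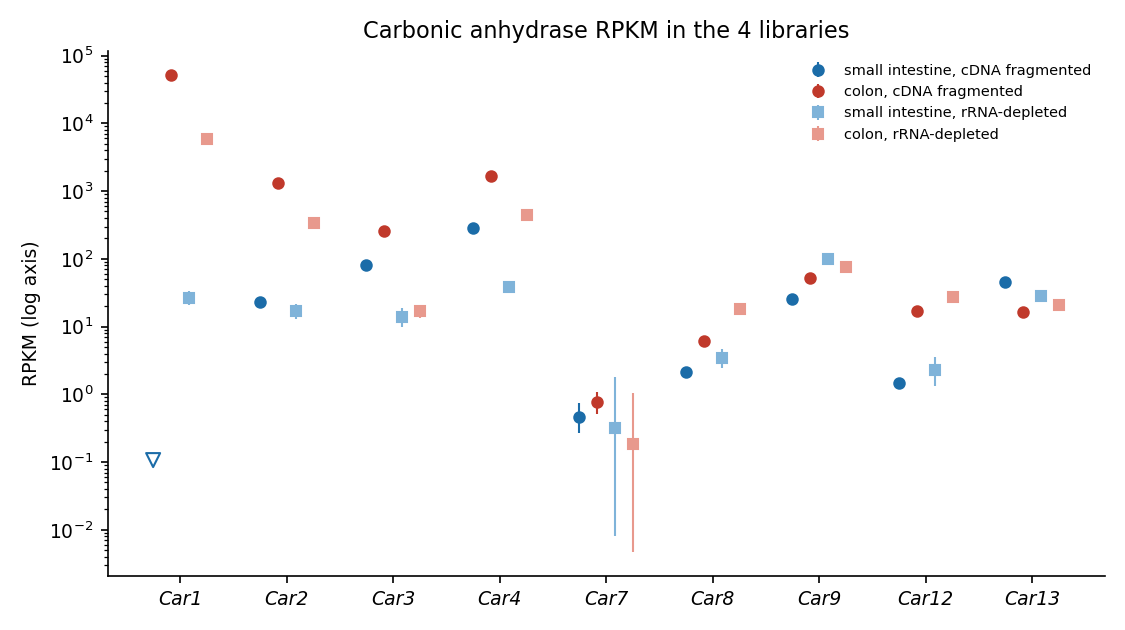
RPKM of the 9 members on a log axis, with a point per library and exact Poisson intervals at the 95% level as bars; the open triangle is the floor of 3 reads for Car1 in the cDNA fragmented small intestine library, which held no Car1 read. Car1 in colon lies above all other points in both protocols, at 52340 and 5915 RPKM, and Car7 lies below 1 RPKM in all 4 libraries.

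Car1, the low-activity cytosolic isozyme known from red blood cells and colonic epithelium, was the most abundant of all 20749 genes by RPKM in the cDNA fragmented colon library and ranked 8 in the rRNA-depleted one. In the cDNA fragmented libraries small intestine showed 0 reads, so that 0.107 RPKM is the most that a floor of 3 reads leaves room for, and colon showed 1619874 reads or 52340 RPKM. Colon was thus at least 489555-fold higher against that floor, and the exact interval of the ratio, which is two-sided, began lower, at 398133. In the rRNA-depleted pair it had 68 reads or 26.8 RPKM in small intestine (20.8 to 33.9) and 25678 reads or 5915 RPKM in colon, a ratio of 221 (174 to 285). The direction was shared by both protocols. The limma adjusted p of the block fit was 4.26e-07, and the fitted size is not given because 1 library was at 0. Car1 alone took 6.53% of all uniquely placed reads of the cDNA fragmented colon library and 0.738% of the rRNA-depleted one.

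The 68 reads of the rRNA-depleted small intestine library were set beside the 0 of the deeper library. At an equal RPKM, 751 reads would have been counted in the cDNA fragmented small intestine library. All 68 lay on the annotated strand, at 52 start points, and each of these start points was also used among the 731 of the rRNA-depleted colon library. Of the 68 reads, 42.6% had at most 1 color mismatch, against 69.7% of Car1 reads in colon by the same protocol, and 29.4% had 3 mismatches, against 14.0%. Some markers of one tissue also had reads in the other. In the cDNA fragmented and rRNA-depleted small intestine libraries Aqp8 had 3 and 5 reads, Atp12a 0 and 2, and Scnn1b 0 and 0. In the colon libraries Lct had 4 and 89 reads and Apoa4 9 and 314, whereas Apoa1 had 220 and 99. The source of the 68 Car1 reads, misplaced or not, was not tested.

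Red blood cells hold Car1 and Car2 protein, so erythroid genes were counted beside them. None of the 8 erythroid genes found was past 3-fold in either protocol. Their summed RPKM was 89.2 in small intestine and 130 in colon by cDNA fragmentation, and 20.5 and 50.02 in the rRNA-depleted libraries. Most of each sum was the β-globin gene Hbb-b2, with 84.2, 125, 15.6 and 45.2 RPKM in the same order and ratios of 1.48 (1.38 to 1.59) and 2.90 (1.78 to 4.95), and it was not called over both protocols (0.58 on the log2 scale, SE 0.44, limma adjusted p = 0.444). Its near copy Hbb-b1 was not found by symbol. Alas2, which starts heme synthesis in red cell precursors, had 0.555 and 0.718 RPKM in the cDNA fragmented libraries and 1.75 and 2.56 in the rRNA-depleted ones. The α-globin genes Hba-a1 and Hba-a2 had at most 27 reads in any library, but they are near copies of each other and unique placement is uncertain for them. Of 6 erythroid genes tested in the block fit, 1 was called by limma, Epb4.2, and it was lower in colon, as were 6.60% of all genes tested.

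Along the transcript, the 64-base upstream Car1 block held 0 reads in all 4 libraries, including the colon library with 1619874 Car1 reads. All 30 windows of 35 bases in this block had no other match in the exon reference at up to 3 base mismatches, which was not checked in color space or against the junctions. Junction placements that included this block numbered 4984 and 4 in the colon libraries, but most junction placements of Car1 joined blocks that are not neighbours. The next block, of 113 bases at chr3:14778348-14778460, held 23959 reads in the cDNA fragmented colon library and 1641 in the rRNA-depleted one. All 6 remaining blocks also held reads in both colon libraries, with 34.4% and 49.9% of Car1 reads in the last. In small intestine the 68 reads lay in 5 of the 8 blocks, 35 of them in the last.

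**Figure D2:**
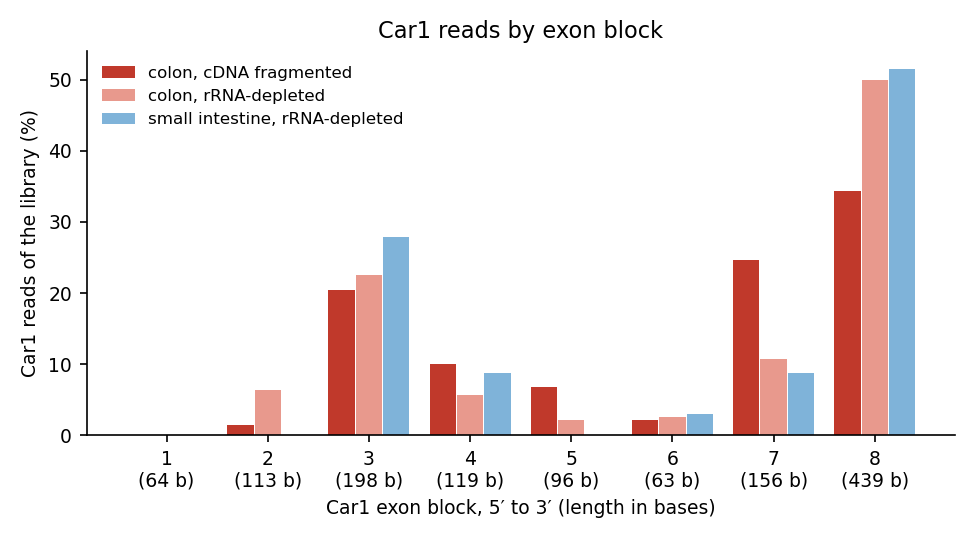
Share of each library's Car1 reads in percent by exon block from 5′ to 3′, with block lengths in bases under the bars; the cDNA fragmented small intestine library held no Car1 read and has no bars. Block 1 is empty in all libraries, and blocks 3, 7 and 8 hold most reads in the cDNA fragmented colon library.

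Car2, the high-activity cytosolic isozyme, stood at 23.3 RPKM for small intestine and 1316 for colon by cDNA fragmentation, from 939 and 58423 reads. The rRNA-depleted pair gave 16.7 RPKM (61 reads) and 340 RPKM (2120 reads). Colon was 56.4-fold higher (52.9 to 60.2) in the former pair and 20.3-fold (15.8 to 26.7) in the latter. The difference was seen in every exon block with at least 10 reads in each tissue, the limit used for all members, with ratios from 38.9 to 71.1 over 7 blocks by cDNA fragmentation and from 10.3 to 26.6 over 3 blocks in the rRNA-depleted pair. Over both protocols Car2 was higher by 5.0 on the log2 scale (SE 0.43, limma adjusted p = 8.30e-09). With start points in place of reads the call held at a smaller size, 1.57 (SE 0.31, limma adjusted p = 0.00154), but the log2 ratio by cDNA fragmentation was 1.56 in place of 5.82 and no longer past 3-fold.

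Car13, another cytosolic isozyme, was the only member lower in colon in both protocols. It stood at 45.4 RPKM for small intestine and 16.3 for colon by cDNA fragmentation, a ratio of 0.359 (0.332 to 0.388). The rRNA-depleted values were 28.4 and 20.6 RPKM, a ratio of 0.726 (0.574 to 0.919). Neither difference was past 3-fold, but with median-of-ratios scaling Car13 passed it in small intestine by cDNA fragmentation. Over both protocols it fell by 1.33 on the log2 scale (SE 0.40, limma adjusted p = 0.0285), which became 0.0630 without the filter on low counts. By exon block, all 6 blocks compared were lower in colon by cDNA fragmentation, but in the rRNA-depleted pair 2 of 3 blocks were higher there, with ratios of 1.24 (0.688 to 2.30) and 1.17 (0.563 to 2.57) whose intervals include 1.

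Car3, a cytosolic isozyme of low activity that is abundant in fat and slow muscle, differed in size between the protocols. It stood at 80.6 RPKM for small intestine and 257 for colon by cDNA fragmentation, a ratio of 3.19 (3.06 to 3.33), and all 7 exon blocks were higher in colon. In the rRNA-depleted pair it had 13.8 and 16.7 RPKM from 43 and 89 reads, and the ratio of 1.21 had an interval of 0.833 to 1.79. The difference over both protocols was 0.99 on the log2 scale (SE 0.44, limma adjusted p = 0.158) and was not called. The summed RPKM of 8 adipocyte genes was 108 in small intestine and 396 in colon by cDNA fragmentation and 42.6 and 200 in the rRNA-depleted libraries. Cfd and Fabp4 were past 3-fold higher in colon in both, as were 2.26% of all genes present in both protocols. Cidec was lower in colon by cDNA fragmentation (0.860, 0.793 to 0.933), and its rRNA-depleted ratio was 1.26 (0.855 to 1.88). Of 7 adipocyte genes tested, 3 were called higher in colon by limma, as were 6.79% of all genes tested. Skeletal muscle genes had sums of 18.5 and 24.8 RPKM by cDNA fragmentation and 7.34 and 18.0 in the rRNA-depleted libraries, and 3 to 5 of the 9 genes were at 0 in each library. Ckm, the muscle creatine kinase, was past 3-fold higher in colon in the rRNA-depleted pair only (5.01, 2.50 to 11.4, from 9 and 77 reads), and its ratio was 2.02 by cDNA fragmentation. The ratios of Acta1 were 0.997 (0.850 to 1.17) by cDNA fragmentation and 0.585 (0.206 to 1.66) in the rRNA-depleted pair. Those of Tnnt1 were 0.920 (0.645 to 1.31) and 0.293 (0.00496 to 5.62). The part of fat and muscle in the Car3 values was not tested.

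Car7, a cytosolic isozyme known from brain, was at the limit of detection. It had 0.463 RPKM (16 reads) and 0.760 RPKM (29 reads) in small intestine and colon by cDNA fragmentation, and 1 read in each rRNA-depleted library. The ratio of 1.64 had an interval of 0.864 to 3.24, so no difference between tissues was detectable at this depth.

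Car4, anchored to the apical membrane, was the most abundant member in the cDNA fragmented small intestine library with 283 RPKM, and it reached 1645 RPKM in colon. In the rRNA-depleted pair it had 37.9 and 444 RPKM from 100 and 2003 reads. The ratios were 5.82 (5.69 to 5.96) and 11.7 (9.59 to 14.5). All 8 blocks by cDNA fragmentation and all 4 blocks compared in the rRNA-depleted pair were higher in colon. Over both protocols Car4 was higher by 2.71 on the log2 scale (SE 0.39, limma adjusted p = 1.94e-05). This call was lost when start points were counted in place of reads (0.36, adjusted p = 0.546 in limma), where the cDNA fragmented libraries had 1589 and 1785 start points on 1298 exonic bases.

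Car12, a transmembrane enzyme, was low in small intestine and showed nearly the same ratio in both protocols. By cDNA fragmentation it stood at 1.45 RPKM for small intestine and 17.1 for colon, a ratio of 11.8 (9.79 to 14.3). In the rRNA-depleted pair it had 2.25 and 27.3 RPKM, a ratio of 12.2 (7.48 to 21.1). The ratio of these ratios was 1.03 (0.613 to 1.74). Over both protocols Car12 was higher by 3.30 on the log2 scale (SE 0.47, limma adjusted p = 1.49e-05). Its first block, of 248 bases, held 61 and 19 reads in the colon libraries and none in those of small intestine.

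Car9, the hypoxia-inducible transmembrane enzyme, went in opposite directions. By cDNA fragmentation it stood at 25.8 RPKM for small intestine and 51.4 for colon, a ratio of 2.0 (1.86 to 2.14), and all 9 blocks compared were higher in colon. The rRNA-depleted pair gave 100.1 RPKM for small intestine and 75.6 for colon, a ratio of 0.755 (0.661 to 0.863). Most of these reads lay on the opposite strand. A single antisense start point at chr4:43526362, in the annotated 3′ untranslated region of the last exon, held 295 of 399 reads in small intestine and 301 of 515 in colon, and 292 and 297 of them had 3 color mismatches. The same position held 1 read in each cDNA fragmented library. With the annotated strand alone, 103 and 202 reads remained, which gave 25.8 and 29.6 RPKM and a ratio of 1.15 (0.901 to 1.47), so the direction turned. Over both protocols, with the antisense reads counted, Car9 was not called (0.07, SE 0.40, limma adjusted p = 0.937). With the annotated strand alone in the rRNA-depleted libraries it was not called either (0.44, SE 0.41, limma adjusted p = 0.555). No annotated gene overlaps that position on the opposite strand. Gm12454, which does lie opposite Car9, begins among the first exons of Car9 and runs away from that position.

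**Figure D3:**
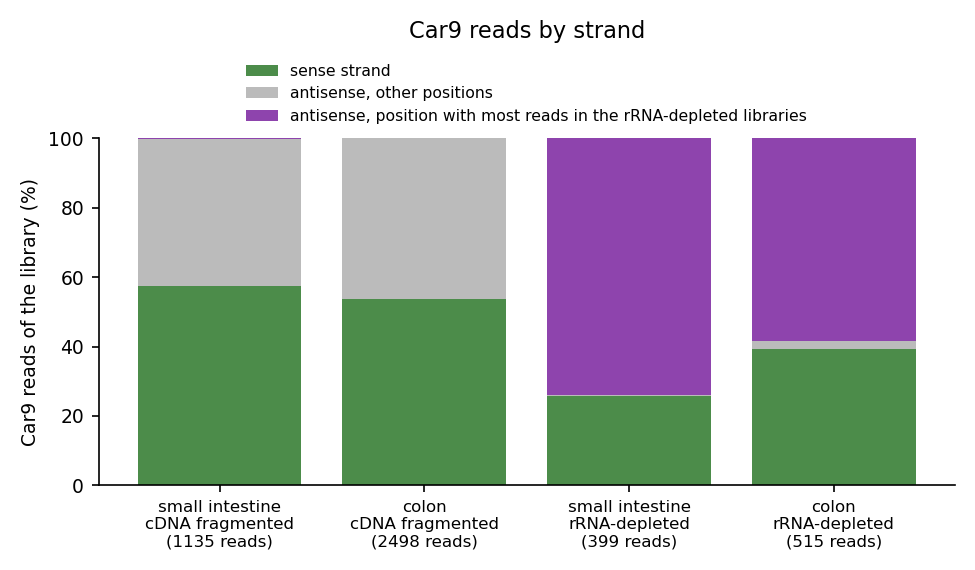
Car9 reads of each library in percent, split into those on the annotated strand, those antisense at the start point with most reads in the rRNA-depleted libraries, and the other antisense reads. In the rRNA-depleted libraries that start point makes up 73.9% of Car9 reads in small intestine and 58.4% in colon, and in the cDNA fragmented libraries 1 read each.

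Car8, the member without catalytic activity, stood at 2.11 RPKM for small intestine and 6.15 for colon by cDNA fragmentation and 3.44 and 18.3 RPKM in the rRNA-depleted libraries. Colon was 2.92-fold higher (2.55 to 3.36) in the former, short of the 3-fold rule, and 5.34-fold (3.85 to 7.60) in the latter. By cDNA fragmentation the 5 blocks compared ranged from 1.94 to 5.20, and the lowest, 1.94 (1.62 to 2.33), was that of the last block of 4724 bases, which held 180 and 386 of the 271 and 873 reads. Over both protocols it was higher by 1.62 on the log2 scale (SE 0.43, limma adjusted p = 0.0119). A pseudogene, Gm11799, and a miRNA gene lie within its annotated span. Car8 is best known from Purkinje neurons, so nerve markers were counted beside it. The summed RPKM of 9 enteric neuron and glia genes was 38.5 in small intestine and 59.0 in colon by cDNA fragmentation and 18.4 and 114 in the rRNA-depleted libraries. The 8 smooth muscle genes summed to 308 and 1281 RPKM, and to 250 and 2445, and 7 of them were called higher in colon by limma. Of 7 nerve genes tested, 2 were called in that direction, as were 6.79% of all genes tested. The part of these cells in the Car8 values was not tested.

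**Figure D4:**
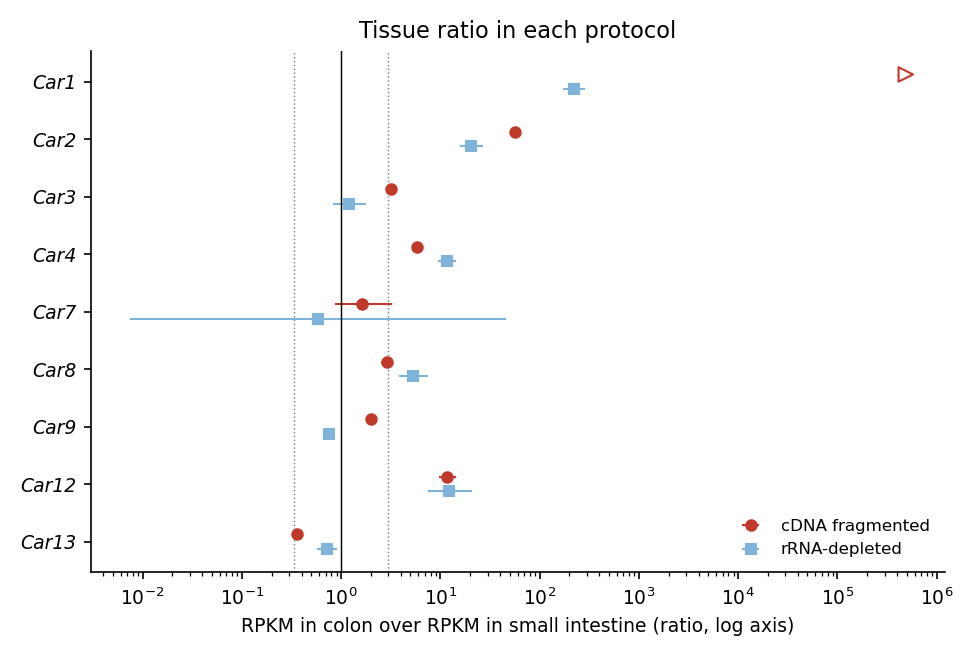
RPKM in colon divided by RPKM in small intestine for each member and protocol on a log axis, with exact intervals at the 95% level for counting error; the solid line is a ratio of 1, the dotted lines a ratio of 3 in either direction without the penalty of 1 RPKM, and the open triangle is the bound for Car1. Car1, Car2, Car4 and Car12 lie right of the 3-fold line in both protocols, whereas Car7 and Car9 each lie on opposite sides of 1. Car7 had 1 read in each rRNA-depleted library, and the rRNA-depleted Car9 ratio was 1.15 on the annotated strand alone.

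Within a library the members kept an order that differed between tissues. In small intestine by cDNA fragmentation Car4 was followed by Car3 and Car13, and only the intervals of Car9 and Car2 overlapped among neighbours in the order. In both colon libraries Car1 was followed by Car4 and Car2, with no overlap among them. Car1 made up 94.0% and 86.2% of the summed RPKM of all 16 carbonic anhydrase genes in colon, and 0 and 11.5% in small intestine. That sum was 465 and 55655 RPKM in small intestine and colon by cDNA fragmentation and 233 and 6865 in the rRNA-depleted libraries. Without the antisense start point of Car9 the latter were 159 and 6821, and the Car1 share was 16.8% and 86.7%. In the rRNA-depleted small intestine library Car9 stood first, but without the antisense start point it had 26.1 RPKM there, and from Car4 down to Car3 (37.9 to 13.8 RPKM) each pair of neighbours overlapped.

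The protocols also differed in the size of the tissue ratio. The ratio in the rRNA-depleted pair divided by that in the cDNA fragmented pair was 0.360 for Car2 (0.277 to 0.469), 0.380 for Car3 (0.263 to 0.548), 2.01 for Car4 (1.65 to 2.46), 1.83 for Car8 (1.28 to 2.60) and 2.02 for Car13 (1.59 to 2.57). Among all 8224 genes with at least 20 reads in each library, the median size of this difference was 0.60 on the log2 scale, and 32.9% had opposite directions in the protocols. On the same scale, rRNA-depleted minus cDNA fragmented, the members ranged from -1.47 for Car2 to 1.02 for Car13, with Car7 left out for its single reads and Car1 for its 0.

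The other 7 carbonic anhydrases (Car5a, Car5b, Car6, Car10, Car11, Car14 and Car15) were low in all libraries, and none was past 3-fold in either protocol. Their summed RPKM was 3.40 in small intestine and 5.18 in colon by cDNA fragmentation and 3.42 and 6.61 in the rRNA-depleted libraries. Of them 3 were tested in the block fit and none was called by limma. An unadjusted limma p below 0.05 was reached by 1 of the 3, and by 3546 of all 13827 genes tested. Their median log2 ratio after 1 RPKM had been added was 0.07 and 0.02 in the cDNA fragmented and rRNA-depleted libraries.

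Of 19 bicarbonate and chloride-bicarbonate transporters, Slc26a3 was past 3-fold higher in colon and Slc26a6 past 3-fold higher in small intestine in both protocols. Of all genes present in both protocols, 2.26% and 2.05% were so. Slc26a3, the apical chloride-bicarbonate exchanger of the colon, had 110 and 730 RPKM in small intestine and colon by cDNA fragmentation and 41.9 and 340 in the rRNA-depleted libraries. Slc26a6, an exchanger of the same family, had 170 and 1.04 RPKM, and 188 and 3.84 RPKM. Of 12 tested in the block fit, 2 were higher in colon, Slc26a3 and Slc4a2, and 2 were lower, Slc26a6 and Slc4a5. The list's median log2 ratio was 0.02 and 0.00. For this and the following lists, 6.79% of all genes tested were called higher in colon and 6.60% lower. The medians over all genes present were 0.16 and 0.31. Of 9 genes for sodium-proton exchangers, proton pumps and an exchanger's scaffold, 1 was past 3-fold higher in colon in both protocols, Atp12a, the colonic proton-potassium pump, with 0 and 1468 reads by cDNA fragmentation and 2 and 1207 in the rRNA-depleted libraries. Of 7 tested in the block fit Atp12a was higher in colon and Slc9a3r1 lower. Slc9a3r1 encodes a scaffold protein and is itself neither exchanger nor pump. The list's median log2 ratio was 0.59 and 0.26. Of 10 hypoxia-inducible genes, Slc2a1, a glucose transporter, was past 3-fold higher in colon in both. All 10 were tested in the block fit, where Slc2a1 and Ankrd37 were higher and none was lower. Ankrd37 lay close to the limit (limma adjusted p = 0.0474). The median of this list was 0.60 and 0.50, against 0.16 and 0.31 over all genes present.

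For each member past 3-fold higher in colon in both protocols, the genes nearest in RPKM over the 4 libraries were sought. The measure was the Euclidean distance of log2(RPKM + 1). For Car12 these were Slc2a1 (distance 0.407), Bace2 (0.552) and O3far1 (0.618). Slc2a1 had 2.01, 20.7, 2.29 and 25.6 RPKM in small intestine and colon by cDNA fragmentation and in small intestine and colon of the rRNA-depleted libraries. For Car4 the nearest were Gm4149 (1.84), Slc26a3 (1.84) and Cd63 (1.88), and for Car2 Klk1 (1.13), Tspan1 (1.70) and Ggh (2.0). Car1 had no close neighbour, the nearest being 1810065E05Rik at a distance of 6.46, followed by Cyp2c55 and Sycn.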

How the data were processed

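The authors deposited, for each of 4 libraries, the position, strand and number of color mismatches of every uniquely placed SOLiD read, with tables of the exon and junction reference. Per the file headers, 35 colors had been matched to merged RefSeq exons of mm9 and to exon-exon junctions with up to 3 mismatches. Introns and intergenic regions were thus not covered. The study describes polyadenylated RNA for its RNA-fragmented libraries, whereas the labels of the deposited ones give ribosomal RNA depletion. It also gives more reads for that protocol than the 36419942 and 37466674 total reads in the authors' reports used here, so these may be other libraries.

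Exon blocks were named by overlap with GENCODE M1 on the same assembly, or by the authors' junction table. A read was given to the block that holds its 5′ start, with 3 bases of tolerance. Numbers of reads and start points equalled those in the authors' reports. RPKM was calculated per 1000000 uniquely placed reads. Intervals (exact Poisson for RPKM, conditional Clopper-Pearson for ratios, 95% level) cover counting error only, and reads carry no molecular identifiers. Genes above 0.01 RPKM with at least 2 start points in either tissue counted as present.

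A quasi-likelihood count model had been planned for the 4 libraries together, but count models were kept for counts made by the authors, and limma 3.58.1 (voom, R 4.3.3) was used in its place on the reads counted here, with trimmed mean of M values factors, terms for protocol and tissue, and genes with at least 10 reads in 2 libraries. The procedure was also run on simulated counts in which both protocols shared the same tissue effect. That run therefore does not cover the disagreement of the protocols in these data. With 1 residual degree of freedom against a prior of 22.1, the spread behind each p-value was mostly that shared over all genes tested. It rests on the disagreement between the pairs of libraries, in which protocol and mouse cannot be told apart. Named were the 9 members, the listed genes past 3-fold in both protocols with their markers, and the 3 nearest genes of each member past 3-fold in both. Members and lists were chosen with earlier results of these data known. Alternatives were fewer mismatches, start points, other scaling, penalties and folds, junction reads, and 1 strand alone.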

Additional observations from a re-analysis of the deposited data

Results flagged for a closer look

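Car9 was marked because its log2 ratio of colon to small intestine had opposite signs in the protocols, 1.0 by cDNA fragmentation and -0.40 in the rRNA-depleted libraries. The ratio of these ratios was 0.379 (0.326 to 0.439 by counting error), and no test against the spread between mice was possible. Signal outside the annotated strand was marked as well, with 295 antisense reads at 1 start point in the rRNA-depleted small intestine library and 301 in the colon library of that protocol, or 145 and 86.5 per 1000000 uniquely placed reads.

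Car7 was marked for the same reason, with log2 ratios of 0.72 and -0.77. The second rests on 1 read per library, the ratio of the ratios had an interval of 0.0208 to 6.08, and the difference between the protocols was not tested otherwise.

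Reads on Car1 exon junctions, which enter no ratio above, were marked in both colon libraries, with 26236 by cDNA fragmentation and 255 in the rRNA-depleted library, against 0 in either small intestine library. They equalled 1.62% and 0.993% of the reads on Car1 blocks. Of these placements 30% and 47.5% joined neighbouring blocks, and 4984 and 4 included the upstream block that held no read of its own, so they were not used to read splicing.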

How the results depend on the processing

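Of 32 alternative values for the counts of members, 30 stayed within 1.5 times the reported count. The exceptions came from counting start points in place of reads, which left 2 members past 3-fold in the cDNA fragmented libraries and 2 in both protocols, since Car2, Car3 and Car4 no longer passed. A gene offers only 1 start point per base and strand, which limits this measure for abundant genes. By start points the log2 ratios by cDNA fragmentation were 9.26 for Car1, 1.56 for Car2, 0.35 for Car3 and 0.10 for Car4, and in the rRNA-depleted pair 3.04 for Car1, 2.57 for Car2, 1.93 for Car4 and 1.77 for Car8. The negative Car9 log2 ratio of the rRNA-depleted libraries turned positive under each alternative that removes or thins its antisense reads, with 0.09 at no more than 1 mismatch, 0.35 for start points, 0.20 for the annotated strand alone and 0.26 without the single start point, the last chosen after seeing the data. No other member changed direction where its counting interval excluded a ratio of 1.

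Median-of-ratios scaling moved all log2 ratios by -0.40 and -0.34 in the 2 protocols. Under it Car3 no longer passed 3-fold by cDNA fragmentation, and Car13 did, in small intestine. In the limma fit, 6 members were called with either scaling, and 5 without the filter on low counts, where Car13 had an adjusted p of 0.0630, or with start points, where Car4 had 0.546. The adjusted p of Car13 lay between 0.00715 and 0.0630 over the alternatives, and that of Car8 between 0.00693 and 0.0347.

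A second count model that had been intended was not run. No paired analysis was possible because the labels number no replicates and name no animals, and each protocol holds 1 library per tissue; the fit reported already has protocol as a block. Leaving out 1 of the 4 libraries leaves no residual degree of freedom and gave no test. Depth limits Car7 in all libraries and all values of the rRNA-depleted small intestine library, where a floor of 3 reads stands for 1.18 RPKM of Car1.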
